A study of Rattus norvegicus with 8 samples.

Results

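Hepatic stellate cells store vitamin A and, once activated, lay down the collagen of liver scar, and 10 genes that mark these cells or the fibrillar collagen matrix are described here across the livers of obese and lean rats of the Zucker diabetic fatty strain. Probes were taken by the accession that the array annotation gives them, and 9 of the 10 genes had at least 1 probe (of 13458 named genes on the array). Together these 9 genes had 13 probes, and all 13 passed the filter on dim probes. Col1a1, Col1a2, Reln and Lrat had 2 probes each, of which the brighter is called probe 1, and the other 5 genes had 1. Acta2, the smooth muscle actin of activated stellate cells, had no probe by accession and was not analysed here.

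Liver RNA came from male Zucker diabetic fatty rats labelled as 12 weeks old, either obese (fa/fa), which carry a defective leptin receptor on both alleles, or lean (fa/+). Testosterone undecanoate (TU), a long-acting testosterone ester, was given subcutaneously, 20 mg/kg per injection, during 4 weeks, and vehicle to the other rats. Each of 8 arrays, 4 obese and 4 lean, carried TU liver RNA in Cy5 against vehicle liver RNA of the same genotype in Cy3. Arrays are labelled as biological replicates, but no label says if each RNA is of 1 animal or a pool, so p-values measure the spread between these arrays. Every array had the same dye orientation, so dye bias of a probe is part of its TU response. All obese arrays lay on 1 slide and all lean arrays on another, each with a scan of its own, and the effects of slide and genotype cannot be told apart. In whole liver, fewer cells of a type and less RNA per cell cannot be told apart either.

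In a quiescent stellate cell, retinol is esterified by lecithin retinol acyltransferase (Lrat) and kept in lipid droplets. After injury, transforming growth factor beta and platelet-derived growth factor drive these cells towards a contractile, matrix-making myofibroblast, which loses its retinoid store and secretes type I and type III collagen. Type I collagen is built from the Col1a1 and Col1a2 chains and type III from Col3a1, and inhibitors such as Timp1 slow the breakdown of the deposited matrix.

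The RefSeq promoter table of build GRCr8 held 5 of the 9 measured genes. Those of Lrat, the gene whose difference between the genotypes held in most settings, and of Col1a2, the collagen with an entry, are shown from 250 bases before to 50 bases after the start site. Capitals mark matches on either strand to the TATA box (letters TATAAA), the CCAAT box (letters as named), the GC box (letters GGGCGG), 1 arm of the androgen response element (letters TGTTCT) or the AP-1 site (letters TGANTCA).
Lrat (GRCr8 chr2:170571163-170571462, minus strand): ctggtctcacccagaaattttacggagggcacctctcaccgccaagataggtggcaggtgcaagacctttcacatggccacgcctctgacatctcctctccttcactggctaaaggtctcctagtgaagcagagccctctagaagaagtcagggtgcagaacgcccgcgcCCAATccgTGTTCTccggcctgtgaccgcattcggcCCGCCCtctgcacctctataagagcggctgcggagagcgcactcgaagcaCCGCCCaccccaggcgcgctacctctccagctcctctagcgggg
Col1a2 (GRCr8 chr4:33518307-33518606, plus strand): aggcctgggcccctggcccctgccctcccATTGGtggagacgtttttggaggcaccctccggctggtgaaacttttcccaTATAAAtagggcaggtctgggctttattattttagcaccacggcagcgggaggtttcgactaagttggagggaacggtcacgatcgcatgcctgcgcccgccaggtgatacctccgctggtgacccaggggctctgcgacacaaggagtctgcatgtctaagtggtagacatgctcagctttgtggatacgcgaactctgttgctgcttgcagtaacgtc
The Lrat window held a CCAAT box at -80, the androgen arm at -72 and 2 GC boxes in the reverse orientation, at -44 and 6. The Col1a2 window held a TATA box at -170 and a reversed CCAAT box at -221. Of 33469 rat promoters of this length, 14.2% held the TATA box letters, 37.5% those of the CCAAT box, 33.1% those of the GC box, 20.7% those of the androgen arm and 7.33% those of the AP-1 site. A match describes the letters of the window and is not a shown binding site.

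Signals are given as log2 units after background correction with an added offset of 50, which understates the change of dim probes, and levels of different probes are not comparable. A probe was called at a limma adjusted p under 0.05 over all probes tested. The 9 hepatocyte markers all passed the filter, and their mean log2 signal lay between 14.81 and 15.85 in obese livers and between 15.18 and 15.64 in lean livers over both dyes. Of 14 further stellate markers with a probe, all 14 passed. Each of the 13 probes lay well above background in both dyes on every array, except Lrat probe 2 in Cy5, where 3 of 4 obese arrays and 4 of 4 lean arrays did. Across all probes the SD of the log2 ratios was 0.464 on obese replicate 2, against 0.106 to 0.252 on the other 7 arrays.

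No stellate or collagen gene passed the test for a TU response in obese livers. The count was 0 of 13 probes, where 0.0111% of 26965 probes were called. The median of the 13 probes was 0.05 on the log2 scale, against -0.0095 over all probes, and 9 of the 13 lay above 0. Only Timp1 and Reln probe 2 reached an unadjusted p under 0.05, as did 12.7% of all probes.

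Col1a1 probe 1 had log2 ratios of TU over vehicle of 0.03, 3.21, -0.25 and 0.51 on obese replicates 1 to 4, against -0.43, -1.501, 0.07 and -0.19 on lean replicates 1 to 4. Obese replicate 2 stood far above every other array and lean replicate 2 was the lowest, while the other 6 lay within 1 log2 unit of each other. The mean response was 0.88 ± 0.51 in obese livers (log2 fold change ± SE, n = 4, limma adjusted p = 0.458) and -0.51 ± 0.51 in lean livers (limma adjusted p = 0.706). Without obese replicate 2 the obese mean was 0.097, and without lean replicate 2 the lean mean was -0.18. Col1a1 probe 2 gave -0.17, 0.55, -0.06 and -0.19 on the obese arrays, so obese replicate 2 was again the highest, but by less. Its obese mean of 0.03 ± 0.11 became -0.14 without that array.

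Col1a2 probe 1 repeated this order, with -0.17, 1.73, -0.54 and 0.33 on obese replicates 1 to 4, against -0.12, -0.63, 0.10 and 0.03 on lean replicates 1 to 4. Its obese mean was 0.34 ± 0.31 (limma adjusted p = 0.609) and turned to -0.13 without obese replicate 2. Col1a2 probe 2 stayed between -0.20 and 0.17 in obese and between -0.32 and 0.13 in lean livers. Col3a1 had -0.22, 0.58, -0.62 and 0.05 on the obese arrays, against -0.13, -0.33, -0.40 and -0.29 on the lean arrays. All 4 lean ratios of Col3a1 thus lay below 0, as 18.5% of probes did, but its lean mean of -0.29 ± 0.16 did not pass (limma adjusted p = 0.438). Obese replicate 2 held the highest ratio among obese arrays for 8 of the 13 probes (61.5%, against 39% of all probes), and obese replicate 3 the lowest for 9 (69.2%, against 15.9%).

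**Figure D1:**
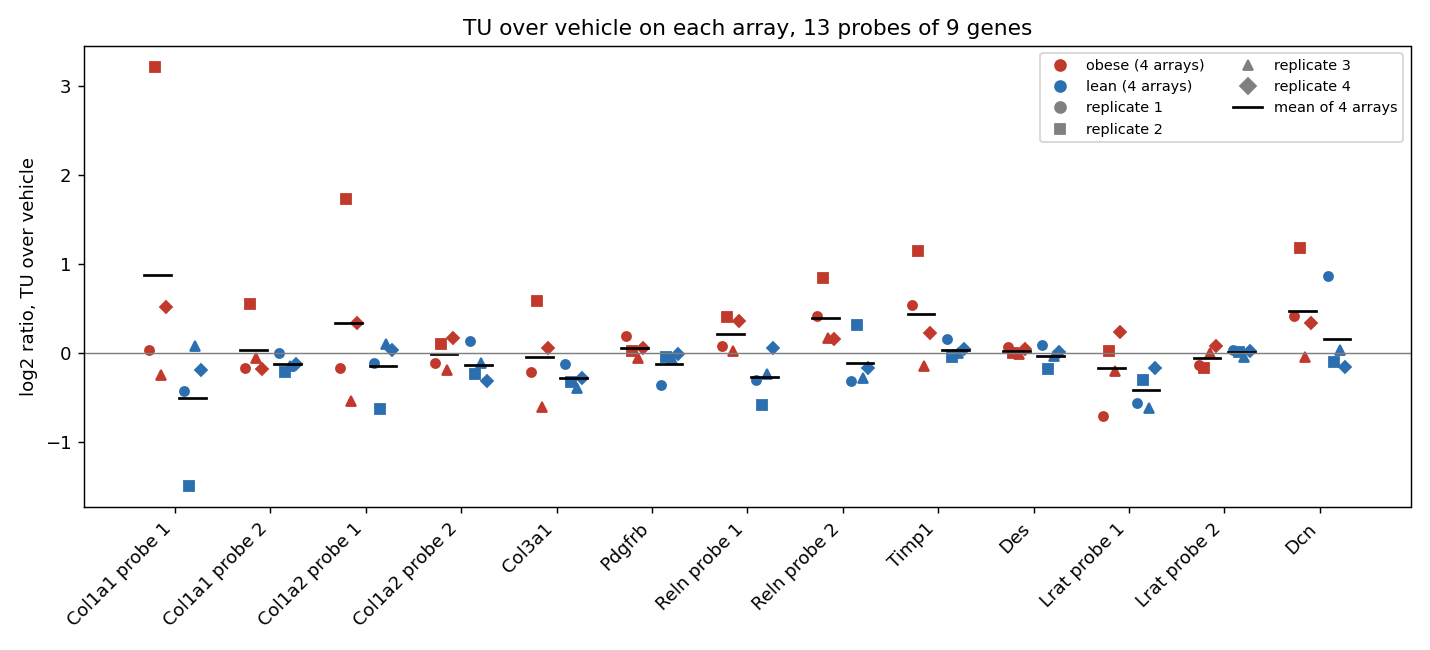
Log2 ratio of TU over vehicle (vertical axis) for each of the 13 probes, with obese arrays in red left of lean arrays in blue, marker shapes for replicates 1 to 4 and black lines for the mean of 4 arrays. Obese replicate 2 stands apart for Col1a1 probe 1 (3.21) and Col1a2 probe 1 (1.73), while Des and Lrat probe 2 stay near 0.

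Reln encodes reelin, a secreted glycoprotein made by stellate cells in the liver. Reln probe 1 gave 0.08, 0.40, 0.02 and 0.36 on obese replicates 1 to 4, against -0.30, -0.59, -0.24 and 0.05 on lean replicates 1 to 4. Reln probe 2 gave 0.42, 0.84, 0.16 and 0.16 on the obese arrays, against -0.32, 0.31, -0.28 and -0.17 on the lean arrays. Both probes were above 0 on all 4 obese arrays, as 12.6% of probes were, and below 0 on 3 of 4 lean arrays. The obese means were 0.21 ± 0.10 and 0.40 ± 0.13 (limma adjusted p = 0.408 and 0.366) and the lean means -0.27 ± 0.10 and -0.11 ± 0.13 (limma adjusted p = 0.267 and 0.757).

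Timp1, the tissue inhibitor of metalloproteinases, had 0.53, 1.15, -0.15 and 0.23 on obese replicates 1 to 4, against 0.15, -0.04, -0.01 and 0.04 on lean replicates 1 to 4. Its 10 spots per array had an SD of 0.0587 to 0.14. The obese mean was 0.44 ± 0.17 (limma adjusted p = 0.378), or 0.20 without obese replicate 2, and the lean mean 0.04 ± 0.17. The SD of the ratios was 0.55 in obese and 0.085 in lean livers, while the SE is shared by both. Dcn, the small proteoglycan decorin that binds collagen fibrils, had 0.42, 1.18, -0.05 and 0.34 on the obese arrays, against 0.86, -0.10, 0.04 and -0.16 on the lean arrays. Its means were 0.47 ± 0.21 in obese and 0.16 ± 0.21 in lean livers (limma adjusted p = 0.396 and 0.791), and each leaned on 1 array, being 0.23 without obese replicate 2 and -0.076 without lean replicate 1.

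Pdgfrb, the platelet-derived growth factor receptor of stellate cells and pericytes, was at 0.05 ± 0.07 in obese livers (95% interval -0.10 to 0.20) and at -0.13 ± 0.07 in lean livers (-0.28 to 0.03), where all 4 ratios lay below 0 and replicate 1 was the lowest at -0.37. Des, the intermediate filament desmin, was at 0.02 ± 0.05 in obese livers (-0.09 to 0.14) and at -0.03 ± 0.05 in lean livers (-0.15 to 0.08). Lrat probe 1 gave -0.71, 0.02, -0.21 and 0.23 on obese replicates 1 to 4, against -0.56, -0.31, -0.62 and -0.17 on lean replicates 1 to 4. Its mean was -0.17 ± 0.14 in obese livers, where the signs were mixed, and -0.41 ± 0.14 in lean livers, where all 4 lay below 0 (limma adjusted p = 0.569 and 0.219). Lrat probe 2, a dim probe, was at -0.06 ± 0.05 in obese and 0.0034 ± 0.051 in lean livers.

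In lean livers the count of called probes was likewise 0 of 13, where 0.178% of 26909 probes were called (0.0669% lower). Here 10 of the 13 lay below 0 and the median was -0.13, against -0.019 over all probes. Lrat probe 1 and Reln probe 1 reached an unadjusted p under 0.05, as did 15% of all probes. The size of these responses and their calls depended on the scaling. When arrays were only centred on their median, the lean responses had an all-probe median of -0.21, the all-probe calls were 320 higher and 6276 lower (30 and 18 with loess), and 5 of the 13 probes were called lower. These were Col1a2 probe 2 at -0.58, Pdgfrb at -0.54, Reln probe 1 at -0.79, Des at -0.28 and Lrat probe 1 at -0.94 (limma adjusted p from 0.0221 to 0.0342).

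The difference between the genotypes in their TU response was 0 called of 13, where 0.00372% of 26907 probes were called. The obese response was the higher one for 12 of the 13 probes, with a median difference of 0.25, against -0.0005 over all probes. With ratios scaled between arrays that median was -0.0061, and without obese replicate 2 it was 0.088. Reln had the smallest p, with differences of 0.49 ± 0.14 and 0.51 ± 0.19 for probes 1 and 2 (limma unadjusted p = 0.0088 and 0.0246, adjusted p = 0.641 for both). In 18 other settings the difference stayed between 0.38 and 1.15 for Reln probe 1. In 17 it stayed between 0.36 and 1.18 for Reln probe 2, and it passed in none of them for either probe. Obese and lean arrays overlapped for all 13 probes, while 3.14% of all probes had every obese ratio higher and 1.94% every obese ratio lower. The 2 Reln probes were those of the 13 with an unadjusted p under 0.05, as had 7.62% of all probes.

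Obese and lean livers were then compared within each dye, in Cy5 for rats given TU and in Cy3 for rats given vehicle. The dyes hold different liver RNA but share the same 8 arrays and spots, so the 2 comparisons are not independent. Col3a1 and Pdgfrb were higher and Lrat was lower in obese livers in both dyes, and Col1a1 probe 1 was higher in obese livers under TU. Under TU 5 of 13 probes passed, 3 higher and 2 lower, where 20.5% of all probes did (11.9% higher and 8.54% lower). Under vehicle 4 of 13 passed, 2 higher and 2 lower, where 15.2% did (8.13% higher and 7.06% lower). The medians of the 13 probes were 0.29 under TU and 0.07 under vehicle, against 0.02 over all probes in both. An unadjusted p under 0.05 was reached by 6 of 13 probes under TU and 5 under vehicle, against 34.2% and 31.6% of all probes.

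Lrat had the steadiest difference. Under TU, Lrat probe 1 had log2 signals of 9.01, 9.49, 9.54 and 9.20 in obese replicates 1 to 4, against 10.002, 9.99, 9.77 and 10.28 in lean replicates 1 to 4. Under vehicle it had 9.72, 9.47, 9.75 and 8.97 in the obese and 10.56, 10.30, 10.39 and 10.45 in the lean replicates. The highest obese signal lay below the lowest lean signal in both dyes, which was so for 11.2% of probes in Cy5 and 12% in Cy3. Lrat probe 1 was 1.63-fold lower in obese livers under TU (-0.70 ± 0.15, n = 4 each, limma adjusted p = 0.0138) and 1.93-fold lower under vehicle (-0.95 ± 0.17, limma adjusted p = 0.0125). The call held in 18 of 18 other settings under vehicle and in 17 of 18 under TU. The exception was the scaling of each channel to its 75th percentile without loess (-0.88, limma adjusted p = 0.631), under which only 0.368% of all probes passed.

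Lrat probe 2 lay much nearer to background. It averaged 6.86 ± 0.11 in obese and 7.12 ± 0.06 in lean livers under TU and 6.92 ± 0.05 and 7.12 ± 0.04 under vehicle (SD, n = 4 each), again without overlap. The differences were -0.26 ± 0.07 under TU and -0.20 ± 0.05 under vehicle (limma adjusted p = 0.0327 for both). Under TU its call was lost without any 1 of the 4 lean arrays (limma adjusted p from 0.0605 to 0.0912) and without obese replicate 2 (0.082) or 3 (0.0665). Under vehicle it was lost without any 1 of the 4 lean arrays (limma adjusted p from 0.0767 to 0.102) and without obese replicate 4 (0.058). Both calls were lost with processed signals (0.264 under TU and 0.0639 under vehicle), under the replicate block (0.0504 and 0.0989) and with the 75th percentile scaling, where the vehicle difference was 0.13.

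Col3a1 was called in both dyes. Under TU it had log2 signals of 12.65, 12.93, 12.14 and 12.42 in obese replicates 1 to 4, against 11.87, 11.88, 11.59 and 11.58 in lean replicates 1 to 4. Under vehicle the values were 12.87, 12.35, 12.76 and 12.36 in obese and 12.00, 12.21, 11.99 and 11.87 in lean livers. All obese signals lay above all lean signals in both dyes, as for 16% of probes in Cy5 and 14.4% in Cy3. Col3a1 was 1.75-fold higher in obese livers under TU (0.81 ± 0.17, limma adjusted p = 0.0136) and 1.48-fold higher under vehicle (0.57 ± 0.14, limma adjusted p = 0.0354). The TU call held without any 1 array but not with the 75th percentile scaling (0.57). The vehicle call was lost without lean replicates 1 to 4 (limma adjusted p = 0.0963, 0.0592, 0.0957 and 0.105) and obese replicate 3 (0.0654), with processed signals (0.0773) and under the replicate block (0.0815), and with the 75th percentile scaling the value was -0.095, where the median of all probes stood at 0.24.

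Pdgfrb followed Col3a1. Under TU it had log2 signals of 9.41, 9.08, 8.58 and 8.92 in obese replicates 1 to 4, against 8.22, 8.42, 8.35 and 8.42 in lean replicates 1 to 4. Under vehicle it had 9.23, 9.07, 8.64 and 8.86 in the obese and 8.59, 8.47, 8.42 and 8.44 in the lean replicates. The array of obese replicate 3 gave the lowest obese signal in both dyes, and still lay above the lean ones. All obese signals lay above all lean signals for 16% of probes in Cy5 and 14.4% in Cy3. Pdgfrb was 1.57-fold higher in obese livers under TU (0.65 ± 0.16, limma adjusted p = 0.0259) and 1.39-fold higher under vehicle (0.47 ± 0.12, limma adjusted p = 0.0424). Its calls were lost without any 1 of the 4 lean arrays (limma adjusted p from 0.0577 to 0.075 under TU and 0.0836 to 0.115 under vehicle) and without obese replicate 2 (0.0649 and 0.0713). The vehicle call was also lost without obese replicate 4 (0.068), with no filter (0.054), with trend and robust fitting (0.0617) and under the replicate block (0.0561), and both calls were lost with the 75th percentile scaling (0.858 under TU and 0.412 under vehicle).

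Type I collagen gave a less even picture. Under TU, Col1a1 probe 1 had log2 signals of 10.51, 12.58, 10.49 and 10.54 in obese replicates 1 to 4, against 8.84, 8.65, 9.71 and 9.26 in lean replicates 1 to 4. It was 3.76-fold higher in obese livers (1.91 ± 0.49, limma adjusted p = 0.0295), or 1.39 on the log2 scale without obese replicate 2, where the call was kept (limma adjusted p = 0.0126). The call was lost without lean replicate 1 (limma adjusted p = 0.0823), 2 (0.0833) or 4 (0.0698), under the replicate block (0.0624) and with the 75th percentile scaling (0.518). Under vehicle the groups overlapped, with 10.48, 9.36, 10.74 and 10.03 in obese livers against 9.27, 10.16, 9.64 and 9.45 in lean livers (0.52 ± 0.32, limma adjusted p = 0.303). Obese replicate 2, the highest array under TU, was here the lowest of the obese arrays.

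The second Col1a1 probe did not show this difference, with 9.82 ± 0.46 in obese and 9.52 ± 0.08 in lean livers under TU (SD, n = 4 each) and a difference of 0.30 ± 0.21 (limma adjusted p = 0.354). Its 95% interval was -0.18 to 0.77, where that of probe 1 was 0.78 to 3.05, and the difference between the probes was not tested. The 2 Col1a2 probes were at 0.83 ± 0.40 and 0.69 ± 0.26 under TU and at 0.34 ± 0.22 and 0.57 ± 0.28 under vehicle, without a call (limma adjusted p from 0.105 to 0.328). Of these, Col1a2 probe 2 had all 4 obese signals (8.75 to 10.07) above all lean signals (8.53 to 8.71) under TU, as for 16% of probes in Cy5. It passed in both dyes without obese replicate 4 (0.88 and 0.82, limma adjusted p = 0.0455 and 0.0461).

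**Figure D2:**
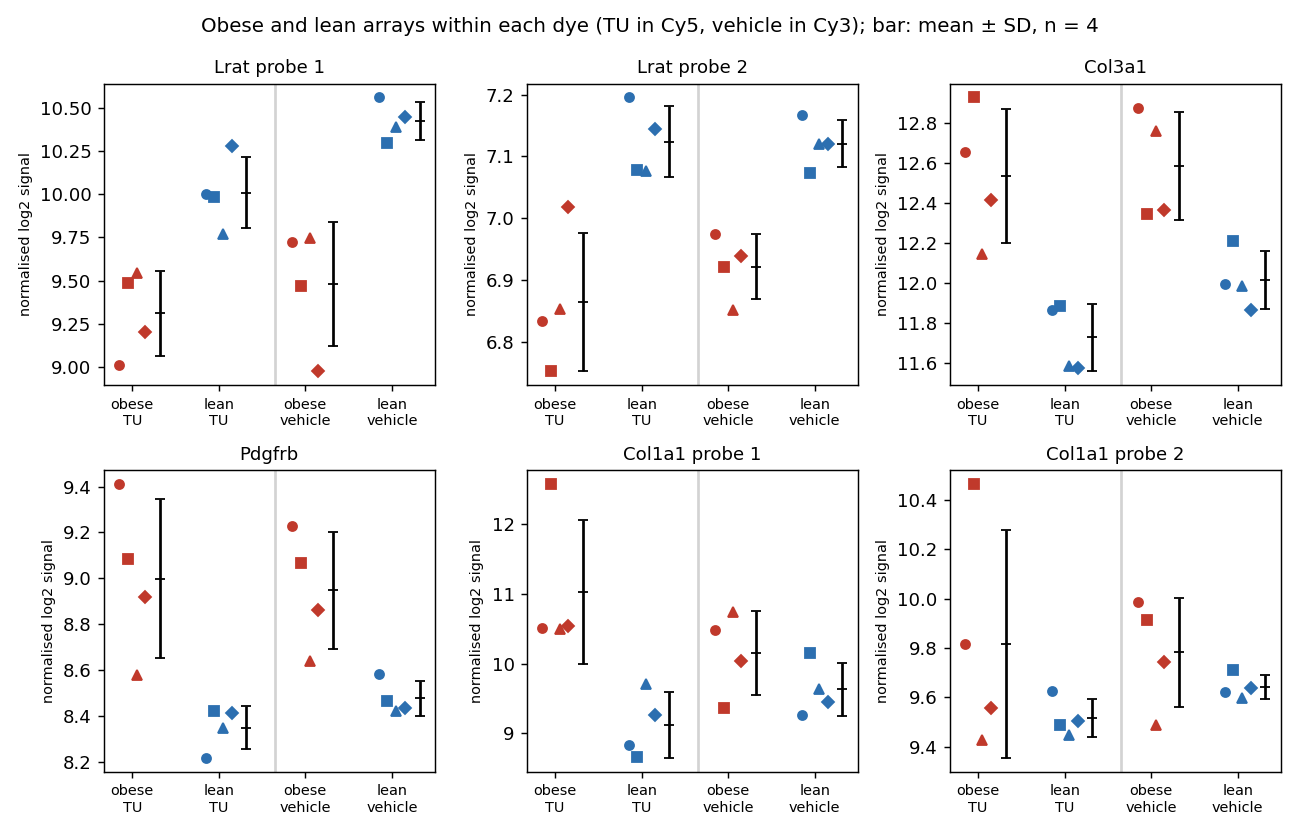
Normalised log2 signal (vertical axis, its own range in each panel) of 6 probes in obese (red) and lean (blue) livers, under TU in Cy5 left of the grey line and under vehicle in Cy3 right of it, with marker shapes for replicates 1 to 4 (circle, square, triangle, diamond) and black bars for mean ± SD (n = 4). Lrat is lower in every obese liver for both probes, Col3a1 and Pdgfrb are higher in every obese liver, and Col1a1 probe 1 has obese replicate 2 at 12.58 under TU.

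The remaining genes had no call in either dye. Reln probe 1 was at 0.07 ± 0.15 under TU and at -0.41 ± 0.15 under vehicle (limma adjusted p = 0.786 and 0.0959). All 4 of its obese vehicle signals (9.46 to 10.10) lay below all lean ones (10.14 to 10.38), as for 12% of probes in Cy3. From the scanner software's processed signals the vehicle value was -0.65 and passed (limma adjusted p = 0.0273). Reln probe 2 was at 0.18 ± 0.22 and -0.33 ± 0.20, and from the processed signals at 1.09 (limma adjusted p = 0.00187) and 0.66 (limma adjusted p = 0.0836), so the probes did not keep 1 direction across signal columns. Timp1 was at 0.20 ± 0.13 under TU and at -0.21 ± 0.15 under vehicle, where it passed as lower without obese replicate 3 (-0.36, limma adjusted p = 0.0311). Des was at 0.12 ± 0.10 and 0.07 ± 0.09, with 95% intervals of -0.11 to 0.35 and -0.15 to 0.29. Dcn was at 0.29 ± 0.15 and -0.02 ± 0.20, with intervals of -0.04 to 0.63 and -0.49 to 0.45.

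**Figure D3:**
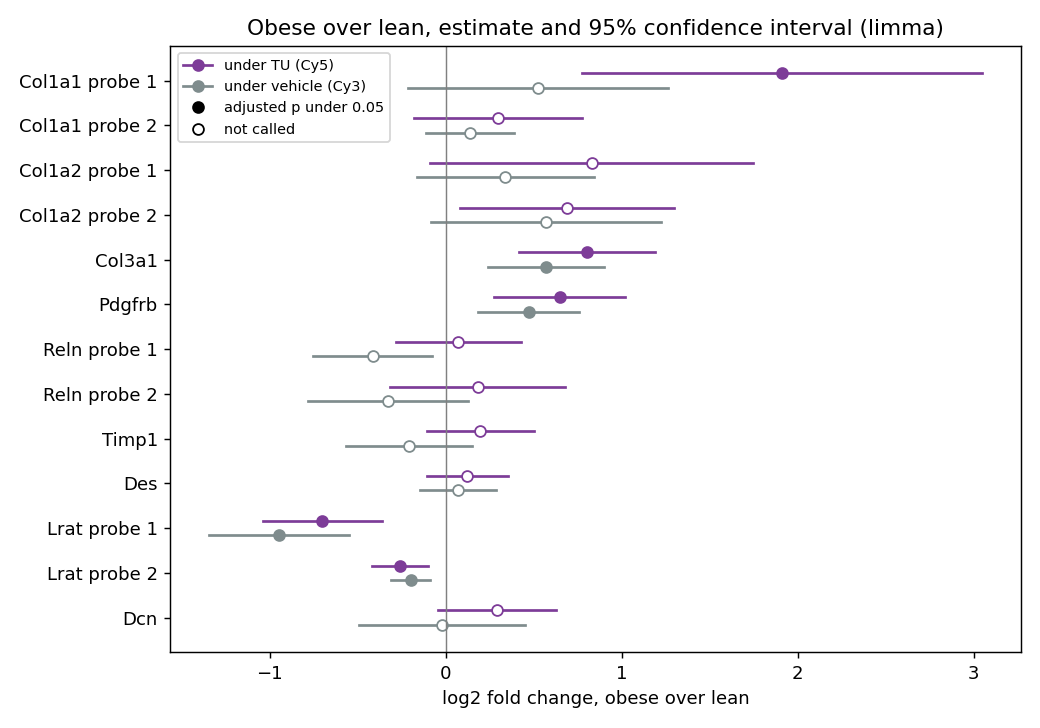
Log2 fold change of obese over lean livers (horizontal axis) with its 95% confidence interval for each of the 13 probes, under TU (purple) and under vehicle (grey), with filled points for a limma adjusted p under 0.05. Both Lrat probes lie below 0, Col3a1 and Pdgfrb lie above 0 in both dyes, and Col1a1 probe 1 has the widest interval (0.78 to 3.05 under TU).

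Genes around the collagens were read from 7 companion lists, each gene by its brightest passing probe. Among 11 genes of other fibril-forming collagens and fibril assembly, 2 were higher and 0 lower in obese livers under TU, and 0 passed under vehicle. Of all named genes by their brightest probe, 20.9% passed under TU (12.8% higher and 8.08% lower) and 15.7% under vehicle (9.68% higher and 6.06% lower). Fn1, which encodes fibronectin, had log2 signals of 15.20, 14.98, 14.72 and 14.88 in obese replicates 1 to 4, against 14.10, 13.88, 14.05 and 14.21 in lean replicates 1 to 4 under TU. That is a 1.85-fold difference without overlap (0.89 ± 0.11, limma adjusted p = 0.00203), and a further Fn1 probe gave 0.92. Under vehicle this probe was at 0.39 ± 0.14 (limma adjusted p = 0.097) and the further probe passed at 0.71 (limma adjusted p = 0.00353). Bgn, the proteoglycan biglycan, was 1.52-fold higher under TU (0.61 ± 0.11, limma adjusted p = 0.00791). Both calls held without any 1 array. Fbn1, a microfibril protein, had a probe that passed at 0.70 under TU and at 0.46 under vehicle (limma adjusted p = 0.00437 and 0.0129). Its brighter probe, the one counted in the list, was at 0.16 and 0.0015 without a call.

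Of 6 basement membrane and other collagens, 1 was higher under TU and 2 under vehicle. Col18a1 was at 0.57 ± 0.16 and 0.45 ± 0.07 (limma adjusted p = 0.043 and 0.00876), but its other probe stood at 0.059 and -0.091, and the vehicle value was -0.32 with the 75th percentile scaling. Its TU call was lost without any 1 of the 4 lean arrays or obese replicate 4 (limma adjusted p from 0.0697 to 0.109), while its vehicle call held without any 1 array. Col4a1 had a probe at 0.60 and a brighter one at -0.42 under TU, so its direction was not settled. Lamc1, a laminin chain, was at 0.35 ± 0.10 under vehicle, a call lost without any 1 of the 4 lean arrays or obese replicate 1 or 2 (limma adjusted p from 0.0593 to 0.125), while its other probe passed in both dyes (0.34 and 0.24, limma adjusted p = 0.00437 and 0.0104).

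Of 12 genes that fold, process and crosslink collagen, 1 was higher under TU and 2 under vehicle. Plod1, a lysyl hydroxylase, was at 0.39 ± 0.10 under TU and 0.33 ± 0.06 under vehicle (limma adjusted p = 0.0279 and 0.0139, and -0.25 under vehicle with the 75th percentile scaling). Its TU call was lost without lean replicates 2 (0.0557), 3 (0.0529) or 4 (0.0503) or obese replicate 4 (0.0629), and its vehicle call without lean replicate 4 (0.0513). P4ha1, a prolyl hydroxylase subunit, was at 0.33 ± 0.08 under vehicle and was lost without any 1 of the 4 lean arrays or obese replicate 4 (limma adjusted p from 0.0642 to 0.107). Serpinh1, the collagen chaperone, was at -0.34 ± 0.10 under TU without passing (limma adjusted p = 0.0513). Of 10 matrix proteases and inhibitors, 0 passed under TU and 1 under vehicle, Adamts1 at -0.18 ± 0.05, which turned to 0.25 with the 75th percentile scaling and was lost without any 1 of the lean arrays or obese replicate 2 or 4 (limma adjusted p from 0.0668 to 0.14).

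In the signalling list (TGF beta and PDGF, 13 genes), 3 were higher under TU and 1 under vehicle. Smad7, the inhibitory SMAD, was 1.58-fold higher under TU (0.66 ± 0.11, limma adjusted p = 0.00485). Smad4, the common SMAD, was higher in both dyes (0.42 ± 0.07 and 0.43 ± 0.04, limma adjusted p = 0.00514 and 0.00161). The Smad7 call and both Smad4 calls held without any 1 array. Tgfb3 was at 0.33 ± 0.10 under TU (limma adjusted p = 0.0467) and was lost without any 1 array but obese replicate 3 (limma adjusted p from 0.0615 to 0.122).

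Among the retinoid genes, Lrat is counted with the 9 stellate and collagen genes and not here. Rxra, a nuclear receptor of retinoids, was higher under TU (0.64 ± 0.08, limma adjusted p = 0.00207). The Rxra call held without any 1 array. Cyp26b1, which degrades retinoic acid, was 2.23-fold lower under TU (-1.16 ± 0.34, limma adjusted p = 0.0464), and was lost without lean replicates 1, 2 or 4 or obese replicates 1 to 3 (limma adjusted p from 0.0628 to 0.123).

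Rbp4, the retinol carrier of plasma made by hepatocytes, was the gene of these lists with a TU call. It rose 1.58-fold in lean livers, as 1 of 12 retinoid genes where 0.211% of named genes were called, with ratios of 0.34, 0.72, 0.84 and 0.74 on lean replicates 1 to 4 (0.66 ± 0.091, limma adjusted p = 0.041). In obese livers it was at 0.43 ± 0.091, above 0 on all 4 arrays, without passing (limma adjusted p = 0.237). The lean call was lost without any 1 array but obese replicate 2 (limma adjusted p from 0.0535 to 0.245), and the lean value was 0.24 with median centring. Under vehicle Rbp4 was at 0.28 ± 0.08 in obese over lean livers (limma adjusted p = 0.0462), but at -0.016 with quantile normalisation and -0.72 with the 75th percentile scaling. That call was lost without any 1 of the lean arrays or obese replicate 1 or 4 (limma adjusted p from 0.0677 to 0.132).

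Of 11 contractile and cytoskeletal genes, 2 were higher and 1 lower under TU, and 1 higher and 2 lower under vehicle. Synm, the intermediate filament protein synemin, which partners desmin, was 1.90-fold higher under TU (0.93 ± 0.14, limma adjusted p = 0.00399), a call that held without any 1 array, and 1.47-fold higher under vehicle (0.55 ± 0.15, limma adjusted p = 0.045). The vehicle call was lost without any 1 array but obese replicate 2 (limma adjusted p from 0.0608 to 0.118). Myh11, the smooth muscle myosin heavy chain, was 2.23-fold lower under TU and 2.08-fold lower under vehicle (-1.16 ± 0.13 and -1.06 ± 0.18, limma adjusted p = 0.00137 and 0.0093), and both calls held without any 1 array. Another Myh11 probe stood at -0.014 and -0.021. Myh9 was at 0.39 ± 0.07 under TU (limma adjusted p = 0.00661), a call kept without any 1 array. One Tpm2 probe was at -0.75 ± 0.20 under vehicle, where the other Tpm2 probes were at -0.084 and -0.17, and its call was lost without lean replicates 2 to 4 or obese replicates 1, 2 or 4 (limma adjusted p from 0.0651 to 0.116).

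**Figure D4:**
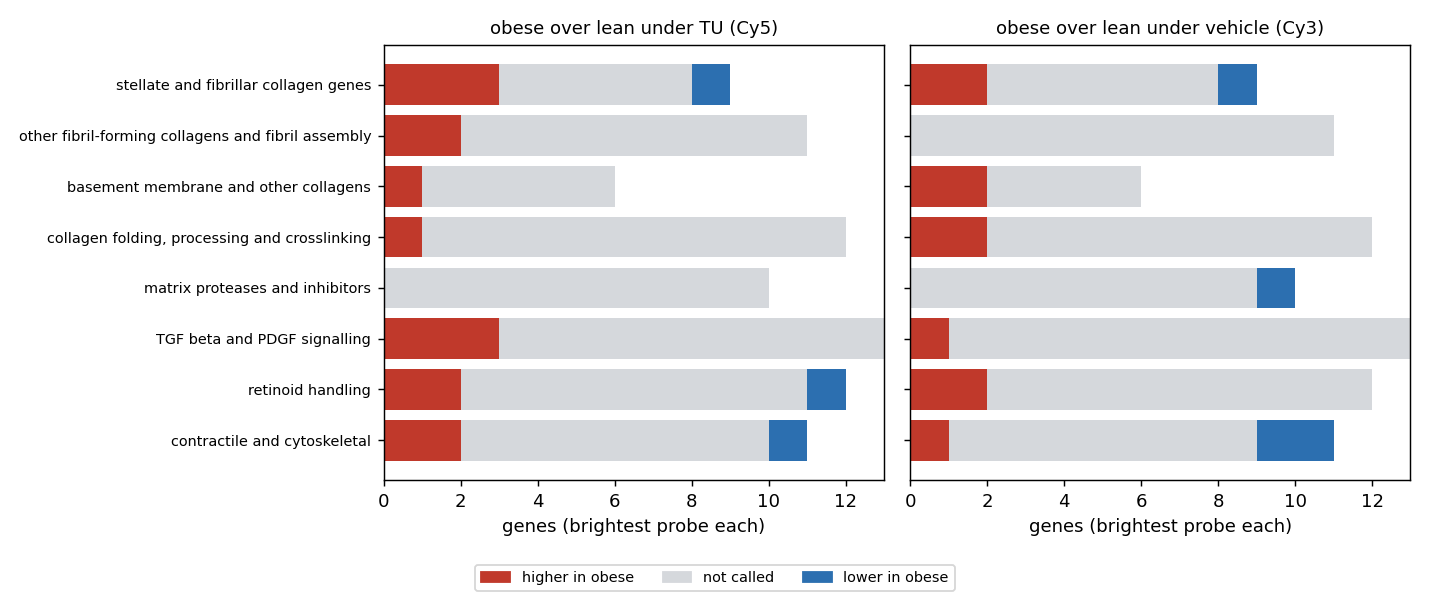
Number of genes (horizontal axis, each by its brightest probe) called higher (red), not called (grey) or called lower (blue) in obese over lean livers, for the 9 stellate and fibrillar collagen genes and 7 companion lists, under TU (left) and under vehicle (right). Most genes of every list carry no call, and each list holds at most 3 genes called higher.

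Apart from Rbp4, no gene of the 7 lists passed for a TU response in either genotype or for a difference between them. By brightest probe 0.0301% of named genes passed in obese livers, all higher, 0.0802% passed as lower in lean livers and 0.01% passed for the difference, all lower. Genes of the smallest p are given for each list, whether or not they came near to a call. In lean livers a further Fn1 probe was at -0.54 ± 0.08 (limma adjusted p = 0.0501) and the brighter one at -0.30 ± 0.12 (limma adjusted p = 0.284). In obese livers the same probes had opposite signs, at -0.34 ± 0.08 and 0.20 ± 0.12 (limma adjusted p = 0.293 and 0.454). In obese livers P4ha2, a prolyl hydroxylase subunit, was at 0.40 ± 0.10, Fmod, the collagen-binding fibromodulin, at 0.40 ± 0.11 and Pdgfra at 0.32 ± 0.09 (limma adjusted p from 0.317 to 0.345). The contractile Tagln and Myl9 were at -0.36 ± 0.11 and -0.35 ± 0.10 (limma adjusted p = 0.349 and 0.347). In lean livers Bambi, a decoy receptor of TGF beta signalling, was at -0.63 ± 0.20, Smad7 at -0.42 ± 0.13 and the membrane metalloprotease Mmp14 at -0.38 ± 0.12, each below 0 on all 4 arrays (limma adjusted p from 0.193 to 0.204). With median centring Bambi and Smad7 passed as lower in lean livers (-1.11 and -0.96), as did Plod1 (-0.75), Bmp1 (-0.84) and Actg2 (-0.87), while Tnc (0.30) and Timp4 (0.21) passed as higher. Aldh1a1, a retinaldehyde dehydrogenase, was at 0.48 ± 0.08 in lean livers (limma adjusted p = 0.0723), above 0 on all 4 arrays, but at -0.053 with median centring. The procollagen protease gene Bmp1 was at -0.34 ± 0.09, tenascin (Tnc) at 0.19 ± 0.05 and Timp4 at 0.15 ± 0.05 in lean livers (limma adjusted p from 0.146 to 0.185).

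The basement membrane list lay below 0 for 6 of 6 genes in obese livers, as did 14512 of 26965 probes. Col8a1 was at -0.20 ± 0.08 (limma adjusted p = 0.385), while Col6a2 was at -0.01 and the other Lamc1 probe at 0.008. In lean livers 4 of 6 lay below 0, as did 15514 of 26909 probes, with Col18a1 at -0.22 ± 0.11 (limma adjusted p = 0.382). Timp3, another metalloproteinase inhibitor, was at -0.29 ± 0.10 in obese livers, and Actg2, a smooth muscle actin, at -0.34 ± 0.13 in lean livers (limma adjusted p = 0.373 and 0.264). In the difference between the genotypes, Mmp14 was at 0.56 ± 0.17, Fn1 at 0.50 ± 0.17, Smad7 at 0.49 ± 0.19, Pdgfra at 0.46 ± 0.13 and Mmp2 at 0.38 ± 0.13, without a call (limma adjusted p from 0.641 to 0.649). The Smad7 difference was -0.22 with ratios scaled between arrays. Below 0 were Sparc at -0.45 ± 0.20 and Aldh1a1 at -0.30 ± 0.12, also without a call (limma adjusted p = 0.653 and 0.65). The further Fn1 probe had a difference of 0.20 ± 0.11 (limma adjusted p = 0.692).

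Markers of other liver cells were read beside these differences, and their part in them was not tested. All 6 measured markers of sinusoidal endothelium lay below 0 in obese over lean livers in both dyes, with 3 called under TU and 1 under vehicle. Of all 26907 probes, 12279 lay below 0 under TU and 12571 under vehicle. Of named genes by their brightest probe, 8.08% were called lower under TU and 6.06% under vehicle. The mean log2 signal of that list was 8.66 to 8.87 in obese and 9.002 to 9.21 in lean livers under TU, and 8.75 to 8.85 and 9.11 to 9.20 under vehicle. Tek had the largest difference of them (-0.99 ± 0.08 and -0.70 ± 0.08), and Stab1, Stab2, Vwf and Clec4g of the list were not measured. The mean of the lymphocyte list was 7.11 to 7.37 in obese and 7.39 to 7.50 in lean livers under TU, and 7.09 to 7.34 and 7.40 to 7.55 under vehicle. Of single probes, 11.2% in Cy5 and 12% in Cy3 had every obese signal below every lean one. Only 1 of 5 lymphocyte markers, Cd3d, was called lower in each dye. The medians of the 5 were -0.11 under TU and -0.18 under vehicle, with lowest values of -0.91 and -0.82.

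Other mesenchymal lists were read in the same way. For portal fibroblasts and mesothelium 0 of 6 markers passed in either dye, and the list mean was 7.89 to 8.27 in obese and 7.79 to 8.15 in lean livers under TU, so the genotypes overlapped. Of 4 vascular smooth muscle markers 1, Myh11, passed as lower in each dye, and the list mean was 8.46 to 8.69 in obese and 8.72 to 8.79 in lean livers under TU, without overlap, and 8.54 to 9.17 and 8.71 to 8.90 under vehicle. The median of the 4 was -0.095 under TU, with 3 below 0, and 0.14 under vehicle, with 3 above 0. Actg2 of this list was at 0.56 and 0.60 without a call, and another Myh11 probe stood at -0.014 and -0.021. Of the 14 further stellate markers, 3 passed as higher and 0 as lower under TU, where 12.8% and 8.08% of named genes did. Among them were Rgs5 and Ntf3 (0.41 ± 0.08 and 0.39 ± 0.07, limma adjusted p = 0.0102 and 0.00705). The 14 markers had a median of 0.13 under TU and ranged from -0.88 to 0.75. For the 9 stellate and collagen genes the list mean was 9.83 to 10.50 in obese and 9.50 to 9.66 in lean livers under TU. Under vehicle it was 9.59 to 10.03 and 9.68 to 9.92, so the list means were apart under TU alone. Of single probes in Cy5, 16% had every obese signal higher and 11.2% every one lower. The 9 genes did not move together under TU, with 5 not called, Col1a1 probe 1 at 1.91 (probe 2 at 0.30) and Lrat probe 1 at -0.70. Erythroid markers had TU ratios of -2.08 to 0.47 in obese livers and 0.72 to 1.10 in lean livers, and hepatocyte markers gave 2 higher and 1 lower of 9 in obese livers under TU and 3 higher under vehicle.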

How the data were processed

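Per the labels, vehicle liver RNA was labelled with Cy3 and TU liver RNA with Cy5 on 8 arrays, and per the file headers Agilent Feature Extraction 10.7.3.1 made the scanner tables. The deposited intensities used are the median pixel values of each spot and of its local background. A further deposited intensity had its background subtracted and its dyes balanced by the scanner software, per the file headers. Per the file headers, the log10 ratio sets red processed signal over green. The authors' value table holds log2 ratios of unstated normalization, and their direction was read by comparing it with the scanner's ratio (column medians 0.0459 to 0.139). Per array, these ratios correlated at r from 0.998 to 1 with ratios of the processed signals. With the loess ratios used here r was 0.237 to 0.703. For TU responses, the authors' log ratios and the processed signals are thus nearly the same setting. Other deposited columns are 0 or 1 flags of each spot's quality.

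Signals were corrected with normexp (offset 50), normalised by loess within arrays, and, for the comparisons within a dye, by Aquantile between arrays in limma 3.58.1 (R 4.3.3). Control and non-uniform spots were left out and repeated spots averaged. Probes had to be well above background, in 1 dye or both, on at least 4 of 8 arrays (26967 of 41012). All passing probes were fitted with lmFit and eBayes on log2 values and adjusted by Benjamini-Hochberg at 0.05. The number of arrays limits the precision. The median signals of the files were used. The 9 genes were found through the accession of the newer of 2 annotations. The older one gave both Col1a1 probes another accession. The genes and lists were chosen with earlier results of these data known. Named beside them are genes of the lists with a passing probe or, failing these, of the smallest p. The fit was tested on simulated data. Deviations of same-numbered obese and lean arrays correlated at r from -0.104 to 0.156, and those of differently numbered arrays at r from -0.26 to 0.295. With this spread the values do not settle if the numbers pair the arrays, and the main fits did not pair them. Alternatives were other background, filter, scaling and fit settings and leaving out each array. Of the genes on the lists, 1 is not reported here.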

Additional observations from a re-analysis of the deposited data

Results flagged for a closer look

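Of 78 groups of 4 values tested for 1 value far from the others, 3 held such a value, where chance gives about 1 in 20. Col1a1 probe 1 had a TU signal of 12.58 in obese replicate 2, where the other 3 obese livers lay between 10.49 and 10.54. Col1a1 probe 2 had a TU over vehicle ratio of 0.5493 on the same array, where the other 3 obese arrays lay between -0.19 and -0.06. Pdgfrb had a ratio of -0.3679 on lean replicate 1, where the other 3 lean arrays lay between -0.075 and -0.020.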

How the results depend on the processing

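The count of called probes among the 13 was 0 for TU in obese livers and for the difference between the genotypes in every setting run. In lean livers it was 5 with median centring and 0 in the other settings. For obese over lean livers it was 5 under TU, with 3 under the replicate block, 0 with the 75th percentile scaling and 2 to 6 with 1 array left out. Under vehicle it was 4, with 1 under the replicate block, 1 with the 75th percentile scaling and 1 to 4 with 1 array left out. Of 608 values of called probes and genes under other settings, 427 kept the call, 174 lost it and 7 changed sign. Of 1659 values without a call, 41 gained one and 64 changed sign. The causes were not tested.

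Over all probes, TU calls in lean livers numbered 48, and 326 without background correction (200 higher and 126 lower), 276 with processed signals (142 and 134), 276 with the authors' log ratios (143 and 133), 0 with trend and robust fitting, 23 under the replicate block, 0 with ratios scaled between arrays, 311 with arrays of 1 genotype alone and 1188 without obese replicate 2. They numbered 1 to 4 without 1 lean array, and 11, 15 and 3 without obese replicates 1, 3 and 4. In obese livers they numbered 3, and 23 without background correction and 208 with processed signals. In obese over lean livers they numbered 99 under TU and 377 under vehicle with the 75th percentile scaling, and 1685 under vehicle with the replicate block. Without 1 lean array the share called was 12.8% to 14.1% under TU (20.5% with all arrays) and 6.46% to 6.7% under vehicle (15.2% with all arrays). Same-numbered arrays correlated at 0.059, -0.104, 0.156 and -0.0134, so the block rests on shared numbers alone.

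The sign of a TU response in obese livers turned with ratios scaled between arrays for Col1a1 probes 1 and 2 (-0.07281 and -0.1439), Col1a2 probe 1 (-0.9485), Pdgfrb (-0.08504), Timp1 (-0.0766), Des (-0.01196) and Mmp2 (-0.08481). Without background correction it turned for Col1a1 probe 2 (-0.01917), Pdgfrb (-0.0169) and Des (-0.02898). Without obese replicate 2 it turned for Col1a1 probe 2 (-0.1386) and Col1a2 probe 1 (-0.1264). With 1 array left out, the ranges were -0.1386 to 0.1069 for Col1a1 probe 2, -0.1264 to 0.6292 for Col1a2 probe 1, -0.07495 to 0.04741 for Col1a2 probe 2, -0.2618 to 0.1372 for Col3a1 and -0.3019 to 0.01187 for Lrat probe 1. Without obese replicate 1 it turned for Col1a2 probe 2 (0.02185), Col3a1 (0.005944) and Lrat probe 1 (0.01187), and without obese replicate 3 for Col1a2 probe 2 (0.04741) and Col3a1 (0.1372). Median centring gave 0.1169 for Col1a2 probe 2 and 0.2475 for Col3a1, and the processed signals and the authors' log ratios gave 0.005706 for Col3a1.

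In lean livers the sign turned with median centring for Timp1 (-0.4769), Lrat probe 2 (-0.1025), Dcn (-0.2559) and Aldh1a1 (-0.0534). Processed signals and the authors' log ratios gave 0.05472 for Reln probe 2 and -0.1076 for Lrat probe 2, which was also at -0.04134 without background correction and -0.01244 with scaled ratios. Without lean replicate 1 the values were -0.00311 for Timp1, -0.004845 for Lrat probe 2 and -0.07566 for Dcn. Without lean replicate 2 they were 0.006032 for Col1a2 probe 1 and 0.01949 for Des, and without lean replicate 4 Lrat probe 2 was at -0.003573. The other ends of these leave-one-out ranges were -0.2373 for Col1a2 probe 1, 0.06211 for Timp1, -0.07103 for Des, 0.01898 for Lrat probe 2 and 0.2657 for Dcn.

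For the difference between the genotypes, scaled ratios gave -0.0164 for Col1a1 probe 2, -0.8928 and -0.2795 for Col1a2 probes 1 and 2, -1.006 for Col3a1, -0.09599 for Timp1, -0.05653 for Lrat probe 1, -0.2241 for Smad7 and 0.08647 for Aldh1a1. Median centring gave 0.04161 for Lrat probe 2, 0.3853 for Sparc and 0.474 for Aldh1a1. Col1a1 probe 2 was at -0.01333 without obese replicate 2 and at most 0.2322 with another array left out, and Col1a2 probe 2 at -0.001348 without background correction.

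In obese over lean livers under TU, Reln probe 1 was at -0.1666 from processed signals, -0.00171 without lean replicate 2, -0.03384 without obese replicate 4, at most 0.1714 with another array left out, and -0.09831 with the 75th percentile scaling. Under vehicle that scaling gave -0.2235 for Col1a1 probe 2, -0.291 for Col1a2 probe 1, -0.09532 for Col3a1, 0.1315 for Lrat probe 2, -0.4403 for Fn1, -0.3217 for Col18a1, -0.246 for Plod1, 0.2471 for Adamts1 and -0.7163 for Rbp4. Rbp4 was at -0.01583 with quantile normalisation, Reln probe 2 at 0.6587 from processed signals and Des at -0.006625 without obese replicate 2 and at most 0.1418 with another array left out. Dcn was at 0.03365 without background correction, 0.02147 with quantile normalisation, 0.09238 without lean replicate 2, 0.01569 without lean replicate 4 and 0.1192 without obese replicate 2, and at the lowest -0.1604 without lean replicate 1. Lrat probe 2, close to background, left the test under the strict filter on signal.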
